A study of Homo sapiens with 79 samples.

Results

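The genes CBX1, CBX3, CBX5, TRIM28, SETDB1, SUV39H1, EHMT1, EHMT2, DNMT1 and UHRF1 encode proteins that read, write or maintain H3K9 methylation and DNA methylation. They were chosen by symbol from the deposited gene table, where they are 10 of 48453 genes, and their 125 isoforms are among 185661 isoforms. All 10 genes passed the filter of at least 1 FPKM in at least 2 libraries, as did 25442 genes in all, and so did 108 of the 125 isoforms. Their mRNAs were followed through the fRIPs of 24 proteins, beginning with CBX3, phospho-CBX3 and DNMT1, because the mRNAs of CBX3 and DNMT1 themselves are among the 10.

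The cells were K562, an established human erythroleukemia cell line, untreated apart from a light formaldehyde cross-link shared by every library. In formaldehyde RNA immunoprecipitation (fRIP), sonicated lysate is incubated with an antibody against a protein, and the RNA recovered with that protein is sequenced beside input RNA from lysate. There were 70 fRIP libraries, 3 for each of 22 proteins and only 2 where the target was EZH2 or STAG2, beside 9 inputs labelled as 3 sets of 3. Per the study's text, replicates were made from separate lysates on separate days. The study's antibody list gives the phospho-CBX3 antibody as one against a phosphorylated form of CBX3. STAG2 served in the study as a target with little RNA, and a fRIP with a non-specific antibody was not analysed here.

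Heterochromatin protein 1 (HP1) binds methylated H3K9 and packs chromatin into a silent state. In mammals it has a set of paralogs: HP1 alpha (CBX5), HP1 beta (CBX1) and HP1 gamma (CBX3). TRIM28 is the scaffold that zinc finger repressors bring to DNA, and it recruits the H3K9 methyltransferase SETDB1. SUV39H1 is the H3K9 methyltransferase of constitutive heterochromatin, whereas EHMT1 (GLP) and EHMT2 (G9a) form a complex that methylates H3K9 in euchromatin. UHRF1 recognises newly replicated, hemimethylated DNA and methylated H3K9 and guides DNMT1, the maintenance DNA methyltransferase, to copy the methyl marks.

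Read from the step that a single fragment adds to genes with a single isoform, taking fragments of 200 bases, depth was 1.99 to 60.6 M (mega) fragments per fRIP library and 12.3 to 31.4 M per input library. It was 12.5 to 16.1 M for CBX3 fRIP, 11.5 to 17.4 M for phospho-CBX3 fRIP, 33.9 to 60.6 M for DNMT1 fRIP and only 1.99 to 2.38 M for ADAR fRIP. In phospho-CBX3 fRIP, replicate 2 stood apart, with 1656 single isoform genes at these low steps against 824 and 825 in the others. The erythroid regulator GATA1 was at 63.9 to 97.2 FPKM in the inputs, CD3E, ALB and COL1A1 stayed under 1 FPKM, and EPCAM was detected (26.6 to 45.0 FPKM). Replicate 1 of input set 1 was lowest in all 4 globins listed, HBG2 at 178 FPKM (median of the inputs 944), HBG1 at 55.8 (293), HBE1 at 208 (616) and HBZ at 0.517 (8.97), and no called pair of the 10 genes was lost without it.

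Levels are given in FPKM (fragments per kilobase of transcript, scaled to library size), which is a share of the sequenced RNA and is scaled by length, so that genes can be set side by side. A higher value in a fRIP is thus a larger share of the recovered RNA, and in such bulk libraries fewer cells with a transcript and less of it per cell cannot be told apart. Fold changes are differences of mean log2(FPKM + 1) between a fRIP and the 9 inputs, fitted with limma over all genes, and the added 1 FPKM shrinks the change of low genes. A gene was called enriched or depleted when the adjusted p was under 0.05 and the log2 fold change was beyond 1 in size.

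Among the 240 pairs of a gene and a fRIP, 12 were enriched and 4 were depleted. Over all genes tested, 6.9% of such pairs were enriched and 5.52% were depleted, so that the enriched share among the 10 genes was near the background and the depleted share was below it. The calls fell in 11 fRIPs, and in 106 of the 240 pairs the adjusted p was under 0.05 whatever the size of the change, as in 35% of the pairs over all genes. DNMT1 mRNA was enriched in 4 fRIPs (SUZ12, CBP, CBX3 and ADAR), EHMT1 mRNA in 3 (SUZ12, CBX3 and HDAC1), CBX1 mRNA in 2 (HNRNPH1 and CHD4), and SETDB1 (SUZ12), EHMT2 (CBP) and CBX5 (IMP1) mRNAs in 1 each. Depleted were TRIM28 mRNA in HUR and HNRNPH1 fRIPs, CBX3 mRNA in EZH2 fRIP and UHRF1 mRNA in HNRNPU fRIP, whereas SUV39H1 mRNA was called in no fRIP. With a pseudocount of 0.1 FPKM, SUV39H1 mRNA passed the call rule in HNRNPU (1.25) and EZH2 (1.12) fRIPs. All 24 comparisons share the inputs.

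**Figure D1:**
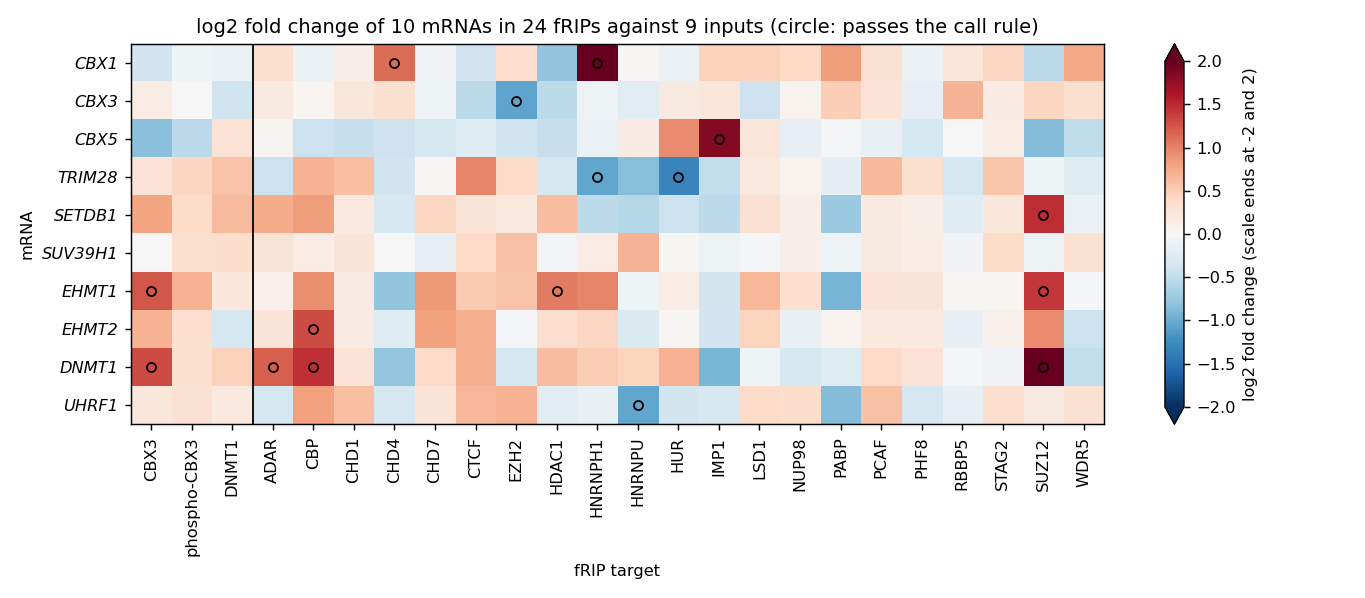
Log2 fold change of each of the 10 mRNAs (rows) in each of the 24 fRIPs (columns) against the 9 inputs, red for higher and blue for lower, with circles on the 16 called pairs and the colour scale ending at -2 and 2. The darkest cells are CBX1 in HNRNPH1 fRIP (2.82), DNMT1 in SUZ12 fRIP (2.17) and CBX5 in IMP1 fRIP (1.84), and the phospho-CBX3 and DNMT1 columns hold no circle.

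In CBX3 fRIP, the mRNAs of DNMT1 and EHMT1 were enriched and no mRNA of the 10 was depleted, where 7.45% of all genes were enriched and 3.65% were depleted. In phospho-CBX3 fRIP none of the 10 was called (2.58% of all genes enriched, 2.91% depleted), and none was called in DNMT1 fRIP (9.56% enriched, 6.88% depleted). At an adjusted p under 0.05 without regard to size, 6 of the 10 differed from input in CBX3 fRIP (4 higher, 2 lower), 5 in phospho-CBX3 fRIP (4 higher, 1 lower) and 4 in DNMT1 fRIP (3 higher, 1 lower). Of all genes, 23.5% were higher and 13.9% lower by that rule in CBX3 fRIP, 13.6% and 12.4% in phospho-CBX3 fRIP, and 28.5% and 17.7% in DNMT1 fRIP. The median log2 fold change of the 10 was 0.25, 0.32 and 0.26 in the 3 fRIPs, beside 0.05, -0.04 and 0.05 for all genes tested. Among the genes with at least 10 FPKM in input, as 9 of the 10 are, the median was 0.07, 0.0047 and 0.37, so that in DNMT1 fRIP the median of the 10 lay between both, with members on either side (-0.40 for CBX3 mRNA to 0.63 for SETDB1 mRNA).

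The mRNA of HP1 gamma was not enriched with its own protein. CBX3 mRNA was at 199, 174 and 193 FPKM in the CBX3 fRIP libraries and at 136 to 211 FPKM (median 175) in the inputs, so the groups overlapped, with a log2 fold change of 0.16 (SE 0.12, adjusted p = 0.35, limma). In phospho-CBX3 fRIP it was at 145, 181 and 181 FPKM, also within the inputs. In DNMT1 fRIP it was at 122, 117 and 148 FPKM, toward or below the bottom of the input range, with a log2 fold change of -0.40 (SE 0.12, adjusted p = 0.0057). On the plot of FPKM by library, the CBX3 panel shows this overlap for CBX3 and phospho-CBX3 fRIPs.

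HP1 alpha mRNA went the other way from most of the 10. CBX5 mRNA was at 35.4, 33.1 and 34.5 FPKM in CBX3 fRIP, below every input (39.5 to 74.9 FPKM, median 63.1), and the 3 libraries lay close together. Its log2 fold change was -0.83 (SE 0.16, adjusted p = 3.09e-05), short of the size needed for a call. It passed the call rule, at -1.005 to -1.001, with input set 3 alone and with each library centred on genes with at least 10 FPKM in input. In phospho-CBX3 fRIP the values were 41.2, 44.1 and 42.3 FPKM, above the lowest input and below the other 8, with a log2 fold change of -0.53 (SE 0.16, adjusted p = 0.011). In DNMT1 fRIP they were 66.5, 80.4 and 82.0 FPKM, overlapping the upper inputs (0.29, SE 0.16, adjusted p = 0.138). Gene FPKM is the sum of isoform FPKM, each scaled by its own length. The CBX5 value in DNMT1 fRIP thus rests on how reads were split among long and short isoforms.

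HP1 beta mRNA, CBX1, was at 28.7, 22.3 and 28.2 FPKM in CBX3 fRIP against 26.7 to 42.2 FPKM (median 37.3) in the inputs. Its libraries were low but overlapped the inputs, and the log2 fold change was -0.39 (SE 0.10, adjusted p = 9.93e-04). With input set 1 alone, the set nearest to the reference in the deposited comparison table for these fRIPs, the difference was -0.09. In phospho-CBX3 and DNMT1 fRIPs CBX1 mRNA overlapped the inputs, with log2 fold changes of -0.09 and -0.14.

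TRIM28 mRNA was the most abundant of the 10, at 348 to 571 FPKM in the inputs (median 432). It was at 471, 503 and 601 FPKM in CBX3 fRIP, at 576, 481 and 686 FPKM in phospho-CBX3 fRIP and at 717, 549 and 658 FPKM in DNMT1 fRIP. In each the libraries were high and overlapped the inputs, and the log2 fold change was 0.57 in DNMT1 fRIP (SE 0.17, adjusted p = 0.00323), 0.43 in phospho-CBX3 fRIP (adjusted p = 0.0499) and 0.29 in CBX3 fRIP (adjusted p = 0.18). The order turned in a fit with each library centred on its own median over the genes with at least 10 FPKM in input, an alternative chosen after seeing the data, which gave 0.17, 0.34 and 0.12.

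SETDB1 mRNA lay above every input (25.1 to 36.0 FPKM, median 29.4) in all 3 fRIPs. It was at 48.9, 49.6 and 60.5 FPKM in CBX3 fRIP, with a log2 fold change of 0.79 (SE 0.11, adjusted p = 5.88e-08). It was at 46.7, 43.98 and 50.8 FPKM in DNMT1 fRIP (0.63, adjusted p = 5.63e-06) and at 38.9, 38.8 and 39.1 FPKM in phospho-CBX3 fRIP (0.36, adjusted p = 0.0128). With the same centring the log2 fold changes were 0.62, 0.22 and 0.28. No other of the 10 mRNAs stood clear of the inputs in all 3.

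EHMT1 mRNA was at 88.1, 86.4 and 111 FPKM in CBX3 fRIP, more than any input (31.5 to 48.0 FPKM, median 39.5). It was enriched at a log2 fold change of 1.25 (SE 0.15, adjusted p = 4.30e-10). In phospho-CBX3 fRIP it was at 65.8, 52.8 and 75.7 FPKM, again above every input (0.69, SE 0.15, adjusted p = 2.38e-04), whereas in DNMT1 fRIP the values of 52.6, 38.7 and 47.3 FPKM overlapped the inputs (0.22, adjusted p = 0.241). EHMT2 mRNA, for the partner in the same complex, was at 41.1, 45.0 and 43.3 FPKM in CBX3 fRIP, above every input (21.3 to 35.9 FPKM, median 25.3), with a log2 fold change of 0.69 (SE 0.17, adjusted p = 5.52e-04). It overlapped the inputs in phospho-CBX3 fRIP (27.1 to 38.2 FPKM) and in DNMT1 fRIP (16.3 to 29.8 FPKM). The complex pair thus lay above every input in CBX3 fRIP and within or around the inputs in DNMT1 fRIP.

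SUV39H1 was the lowest of the 10, at 0.314 to 0.906 FPKM in the inputs. Its values in CBX3 (0.448 to 0.724 FPKM), phospho-CBX3 (0.755 to 1.20 FPKM) and DNMT1 (0.888 to 1.16 FPKM) fRIPs overlapped the inputs. At this level the added 1 FPKM holds fold changes near 0, and only 1 of its 5 isoforms entered the isoform test. In limma none of the 3 passed an adjusted p of 0.05, whereas in the exact permutation test the log2 difference of 0.35 in DNMT1 fRIP had p = 0.0182 (0.042 adjusted over the 30 exact tests).

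DNMT1 mRNA was at 266, 306 and 325 FPKM in CBX3 fRIP, more than any input (98.5 to 140.2 FPKM, median 122). It was enriched at a log2 fold change of 1.30 (SE 0.12, adjusted p = 1.08e-13). In the fRIP of its own protein it was at 192, 157 and 155 FPKM, also above every input, with a log2 fold change of 0.47 (SE 0.12, adjusted p = 8.90e-04). The genes with at least 10 FPKM in input, 8309 in number, had a median log2 fold change of 0.37 in DNMT1 fRIP, and with each library centred on those genes DNMT1 mRNA was at 0.06 and CBX3 mRNA at -0.80. In phospho-CBX3 fRIP it was at 163, 127 and 166 FPKM, with replicate 2 inside the input range (0.32, adjusted p = 0.0398).

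UHRF1 mRNA was at 12.9, 11.97 and 21.4 FPKM in CBX3 fRIP and at 9.54 to 21.3 FPKM (median 12.2) in the inputs. It overlapped the inputs there, in phospho-CBX3 fRIP (12.1 to 23.4 FPKM) and in DNMT1 fRIP (12.6 to 17.5 FPKM), with log2 fold changes of 0.22, 0.30 and 0.19 and adjusted p-values of 0.517, 0.389 and 0.543. Centring on genes with at least 10 FPKM turned the sign of CBX3 mRNA in CBX3 fRIP and of CBX5, EHMT1, SUV39H1 and UHRF1 mRNAs in DNMT1 fRIP, all of which were short of the adjusted threshold.

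Taken 1 value at a time, a two-sided exact permutation test of 3 against 9 libraries allows 220 splits and no p below 0.00909. This p was reached in CBX3 fRIP by CBX5, SETDB1, EHMT1, EHMT2 and DNMT1 mRNAs, in phospho-CBX3 fRIP by SETDB1 and EHMT1 mRNAs, and in DNMT1 fRIP by SETDB1 and DNMT1 mRNAs. Adjusted over the 30 exact tests, their p was 0.0303.

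**Figure D2:**
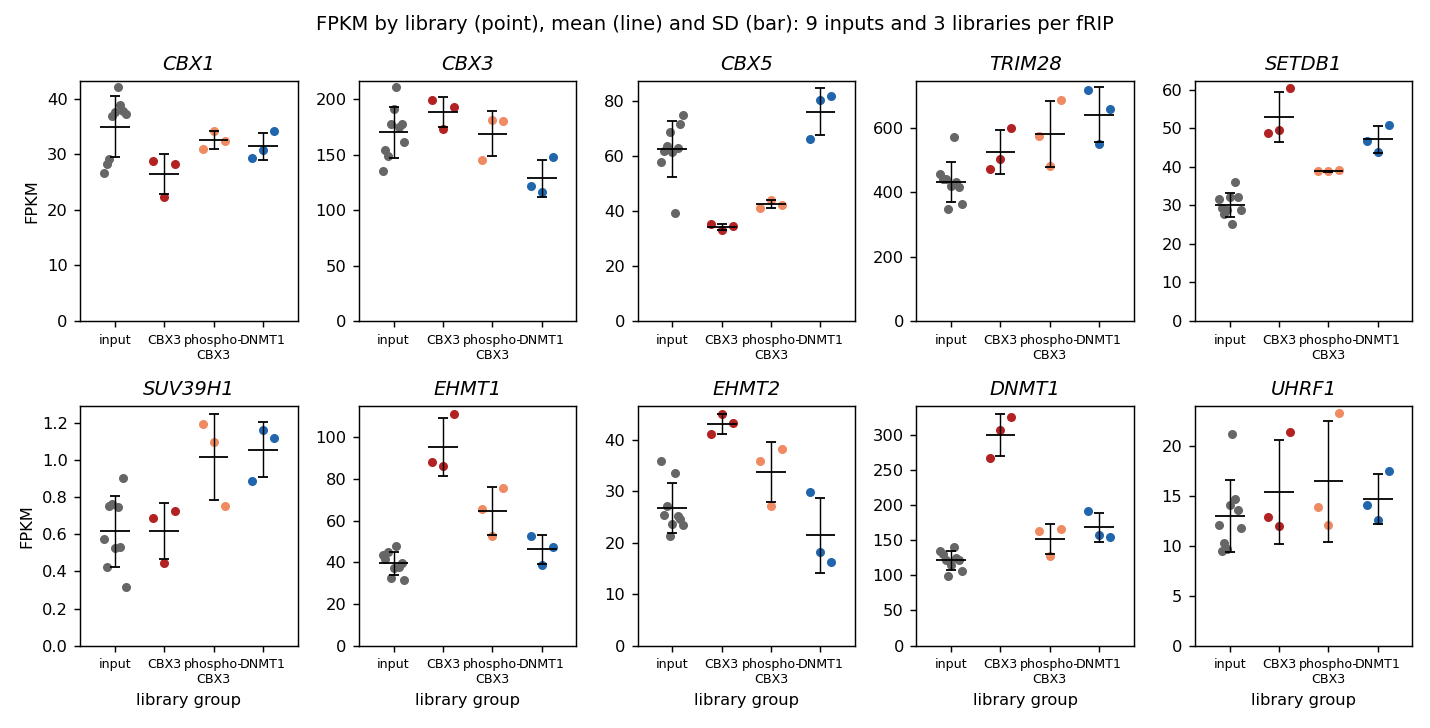
FPKM of each of the 10 mRNAs in the 9 inputs and in the 3 libraries each of CBX3, phospho-CBX3 and DNMT1 fRIPs; points are libraries, lines are means and bars are SD, and each vertical axis starts at 0. DNMT1 and EHMT1 stand clear of the inputs in CBX3 fRIP (266 to 325 and 86.4 to 111 FPKM), CBX5 lies below them there (33.1 to 35.4 FPKM), and SETDB1 lies above them in all 3 fRIPs.

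Set directly against each other, phospho-CBX3 and CBX3 fRIPs differed in 3 of the 10 mRNAs at an adjusted p under 0.05, and each was lower in phospho-CBX3 fRIP, where by that rule 8.51% of all genes were lower and 2.91% higher. DNMT1 mRNA differed most, with a log2 difference of -0.98 (SE 0.15, adjusted p = 2.29e-06), and its 3 values in phospho-CBX3 fRIP (127 to 166 FPKM) lay under the 3 in CBX3 fRIP (266 to 325 FPKM). EHMT1 differed by -0.55 (SE 0.18, adjusted p = 0.0355) and SETDB1 by -0.43 (SE 0.14, adjusted p = 0.0331), also without overlap. None of the 10 was beyond 1 in size, as were 0.33% of all genes that were higher and 2.4% that were lower in phospho-CBX3 fRIP. Without replicate 2 of each, the differences were -0.84 for DNMT1, -0.48 for EHMT1 and -0.47 for SETDB1. Without replicate 1 of each, DNMT1 was at -1.12 and passed the call rule. The other 7 mRNAs had log2 differences between -0.36 and 0.31.

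Over all 24 fRIPs the 3 HP1 paralogs had separate highest and lowest proteins. CBX1 mRNA (hg19 chr17:46147414-46178840, minus strand) was at 230, 249.5 and 272 FPKM in HNRNPH1 fRIP, far above the inputs and above every library of the other 23 fRIPs. It was enriched at a log2 fold change of 2.82 (SE 0.10, adjusted p = 1.49e-32), where 24.5% of all genes were enriched. HNRNPH1 is a splicing factor known to bind runs of G, and the median log2 fold change of all genes was 0.34 there. In the separate fit in which every library was first set to a common median of log2(FPKM + 1), CBX1 mRNA was at 2.08. CHD4, a chromatin remodeler, followed with 75.6, 72.3 and 80.4 FPKM (1.12, SE 0.10, adjusted p = 2.64e-14; 2.91% of all genes enriched), and against input sets 2 and 3 alone CBX1 mRNA was short of a call there. The lowest values were in HDAC1 fRIP (18.3, 18.7 and 22.2 FPKM, log2 fold change -0.78), which overlapped 1 other fRIP.

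The isoform that held most of the CBX1 signal was CBX1-201, at 32.9 FPKM in input and 241 FPKM in HNRNPH1 fRIP. Because HNRNPH1 binds G runs, overlapping matches to GGG were counted on its transcript strand. The whole isoform held 51 matches in 2182 bases, or 23.4 per kilobase, more than 76.0% of the 24601 main transcripts, whose median was 15.0. GGG itself was nearly everywhere, in 98.6% of those transcripts, and EHMT2-203, at 33.4 per kilobase, held more while EHMT2 mRNA was not called in HNRNPH1 fRIP. The part of G runs in the CBX1 value was not tested.

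CBX3 mRNA (chr7:26240782-26253227, plus strand) was called in 1 of the 24 fRIPs. Its mean ran from 81.1 FPKM in EZH2 fRIP to 273 FPKM in RBBP5 fRIP, with a log2 fold change of 0.68 (SE 0.12, adjusted p = 1.97e-05) in the latter, whose libraries (250.1, 260.2 and 307 FPKM) overlapped 2 other fRIPs. In EZH2 fRIP its 2 libraries were at 78.5 and 83.7 FPKM, below all inputs and every library of the other fRIPs. It was depleted there at a log2 fold change of -1.05 (SE 0.14, adjusted p = 1.03e-08), where 9.13% of all genes were depleted. The call was lost with the replicate number in the fit (-0.99), with each library centred on its median (-0.88) and with input set 1 alone (-0.84). EZH2 is the H3K27 methyltransferase of Polycomb repressive complex 2, and in the fRIP of SUZ12, another subunit of that complex, CBX3 mRNA was at a log2 fold change of 0.43 (SE 0.12, adjusted p = 0.00222).

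CBX5 mRNA (chr12:54624726-54673917, minus strand) was highest in IMP1 fRIP, at 246, 225 and 202 FPKM. Every library was above all inputs and above all other fRIPs, and it was enriched at a log2 fold change of 1.84 (SE 0.16, adjusted p = 2.84e-14), where 4.23% of all genes were enriched. HUR fRIP was next, at 110.1, 117 and 132 FPKM, above all inputs at a log2 fold change of 0.94 (SE 0.16, adjusted p = 2.98e-06). IMP1 is a cytoplasmic mRNA binding protein, and HUR, which shuttles between nucleus and cytoplasm, is known to bind AU-rich elements. The lowest values were in SUZ12 fRIP (32.7, 33.1 and 34.3 FPKM, log2 fold change -0.87), and they overlapped 3 other fRIPs, CBX3 fRIP among them.

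The CBX5 signal rested on CBX5-201, an isoform of 11546 bases that is longer than 99.3% of main transcripts. The 30 bases with the most bases in ATTTA, the core of AU-rich elements, are shown with the motif in capitals, and they lie in its 3′ UTR at hg19 chr12:54634660-54634689 on the minus strand.
CBX5-201: tccattcctcatATTTAgactgtatATTTA
The isoform held 23 matches to ATTTA, or 1.99 per kilobase, more than 77.5% of main transcripts. The motif was in 58.7% of them at a median of 0.643 per kilobase, and CBX3-202 held it more densely, at 3.40 per kilobase, while CBX3 mRNA was not called in HUR or IMP1 fRIP. The study found U-rich motifs for HUR. Of TTTTT, CBX5-201 held 118 matches, or 10.2 per kilobase, more than 94.5% of main transcripts (median 1.54), and CBX3-202 held 7.28 per kilobase. The part of either motif in the HUR and IMP1 values was not tested. CBX5-201 was at 45.5 FPKM in input (26.8 to 57.4), at 199 FPKM in IMP1 fRIP (170 to 217; log2 fold change 2.12, SE 0.21, adjusted p = 1.93e-12) and at 104.5 FPKM in HUR fRIP (1.20, adjusted p = 6.58e-06).

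The HP1 genes have near copies in the genome. Of the words of 31 bases in their main transcripts, 42.7% (CBX1), 32.6% (CBX3) and 14.1% (CBX5) also occur elsewhere in the hg19 genome, against at most 2.50% for TRIM28, SETDB1, SUV39H1, EHMT1, EHMT2 and DNMT1. There are 5 annotated pseudogenes for CBX1, 10 for CBX3 and 1 for CBX5, so that the split of reads between gene and copy is uncertain. The highest CBX1 pseudogene in HNRNPH1 fRIP, CBX1P1, had a mean of 3.60 FPKM and a highest library of 4.59 FPKM (mean 0.716 in input), and CBX5P1 had a mean of 0.27 FPKM in IMP1 fRIP (2.60 in input). CBX3P2, however, was at 8.56 FPKM in EZH2 fRIP against 1.84 FPKM in input, and its part in the lower value of CBX3 mRNA was not tested.

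TRIM28 mRNA (chr19:59055431-59062089, plus strand) was lowest with RNA binding proteins. In HUR fRIP it was at 140, 177 and 201 FPKM, below every input, and it was depleted at a log2 fold change of -1.32 (SE 0.17, adjusted p = 1.43e-09), where 6.93% of all genes were depleted. In HNRNPH1 fRIP it was at 242, 171 and 217 FPKM, depleted at -1.04 (SE 0.17, adjusted p = 2.07e-07; 7.9% of all genes depleted), and these libraries overlapped those of HUR fRIP. The call in HNRNPH1 fRIP was lost without replicate 2 of the fRIP, without replicate 3 of input set 2 or with input set 3 alone, where the weakest log2 fold change was -0.90. The highest values were in CTCF fRIP, at 913, 711 and 909 FPKM (0.97, SE 0.17, adjusted p = 1.73e-05), which overlapped 5 other fRIPs. CBX5 and TRIM28 mRNAs thus lay on opposite sides of input in HUR fRIP.

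SETDB1 mRNA (chr1:150898739-150937220, plus strand) was highest in SUZ12 fRIP, at 79.5, 79.3 and 97.6 FPKM, above every library of the other 23 fRIPs. It was enriched at a log2 fold change of 1.47 (SE 0.11, adjusted p = 2.61e-17), where 15.3% of all genes were enriched. It was lowest in PABP fRIP, at 17.0, 18.9 and 17.1 FPKM (-0.73, SE 0.11, adjusted p = 1.40e-07), and these overlapped 4 other fRIPs. PABP binds poly(A) tails.

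EHMT1 mRNA (chr9:140513444-140764468, plus strand) had the same highest and lowest proteins. In SUZ12 fRIP it was at 113, 88.9 and 119 FPKM, enriched at 1.41 (SE 0.15, adjusted p = 2.24e-12), and CBX3 fRIP was among the 2 fRIPs that overlapped it. In HDAC1 fRIP it was at 82.0, 75.1 and 87.5 FPKM, enriched at 1.03 (SE 0.15, adjusted p = 4.61e-08), where 8.42% of all genes were enriched, and with input set 1 alone it was at 0.90 and no longer called. In PABP fRIP it was at 21.6, 22.7 and 16.7 FPKM, below every input (-0.93, SE 0.15, adjusted p = 2.87e-07).

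EHMT2 mRNA (chr6:31847536-31865475, minus strand) was highest in the fRIP of CBP, a histone acetyltransferase, at 68.2, 62.9 and 68.9 FPKM. It was enriched at a log2 fold change of 1.31 (SE 0.17, adjusted p = 1.48e-09), where 9.08% of all genes were enriched, and SUZ12 fRIP followed at 71.0, 45.4 and 42.3 FPKM (0.94, adjusted p = 1.97e-06) and overlapped it. Its lowest fRIP, WDR5 (15.8, 16.8 and 26.7 FPKM), overlapped the inputs and 13 other fRIPs. SUV39H1 mRNA (chrX:48553945-48567407, plus strand) was highest in HNRNPU fRIP, at 2.21, 1.66 and 0.991 FPKM, above all inputs at a log2 fold change of 0.68 (SE 0.16, adjusted p = 3.43e-04). These values overlapped 11 other fRIPs, as did the lowest, in CHD7 fRIP (0.337 to 0.536 FPKM, log2 fold change -0.16).

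DNMT1 mRNA (chr19:10244018-10341962, minus strand) varied most of the 10, with an SD of 0.72 over the 24 log2 fold changes. In SUZ12 fRIP it was at 586, 490.5 and 566 FPKM, above every library of the other fRIPs and enriched at a log2 fold change of 2.17 (SE 0.12, adjusted p = 1.10e-23). In CBP fRIP it was at 333, 341 and 327 FPKM, enriched at 1.46 (SE 0.12, adjusted p = 4.56e-16). Both stood clear of the DNMT1 fRIP itself (155 to 192 FPKM). In ADAR fRIP it was at 270.3, 278 and 286 FPKM, enriched at 1.20 (SE 0.12, adjusted p = 1.97e-13), where 26.6% of all genes were enriched and depth was lowest, and after centring all libraries on their medians it was at 0.22 and no longer called. It was lowest in IMP1 fRIP, at 55.2, 64.9 and 70.8 FPKM, below every input (-0.92, SE 0.12, adjusted p = 2.98e-09), and CHD4 fRIP (71.5, 50.0 and 95.2 FPKM) overlapped those values.

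UHRF1 mRNA was depleted in the fRIP of HNRNPU, a nuclear matrix protein, at 6.10, 4.76 and 6.17 FPKM, below every input. The log2 fold change was -1.04 (SE 0.24, adjusted p = 2.36e-04), where 2.52% of all genes were depleted, and with input set 1 alone it was -0.81. It was highest in CBP fRIP at 24.8, 23.0 and 21.9 FPKM (0.82, SE 0.24, adjusted p = 0.00398), which overlapped 5 other fRIPs. The location of UHRF1 was not matched in the annotation used here.

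**Figure D3:**
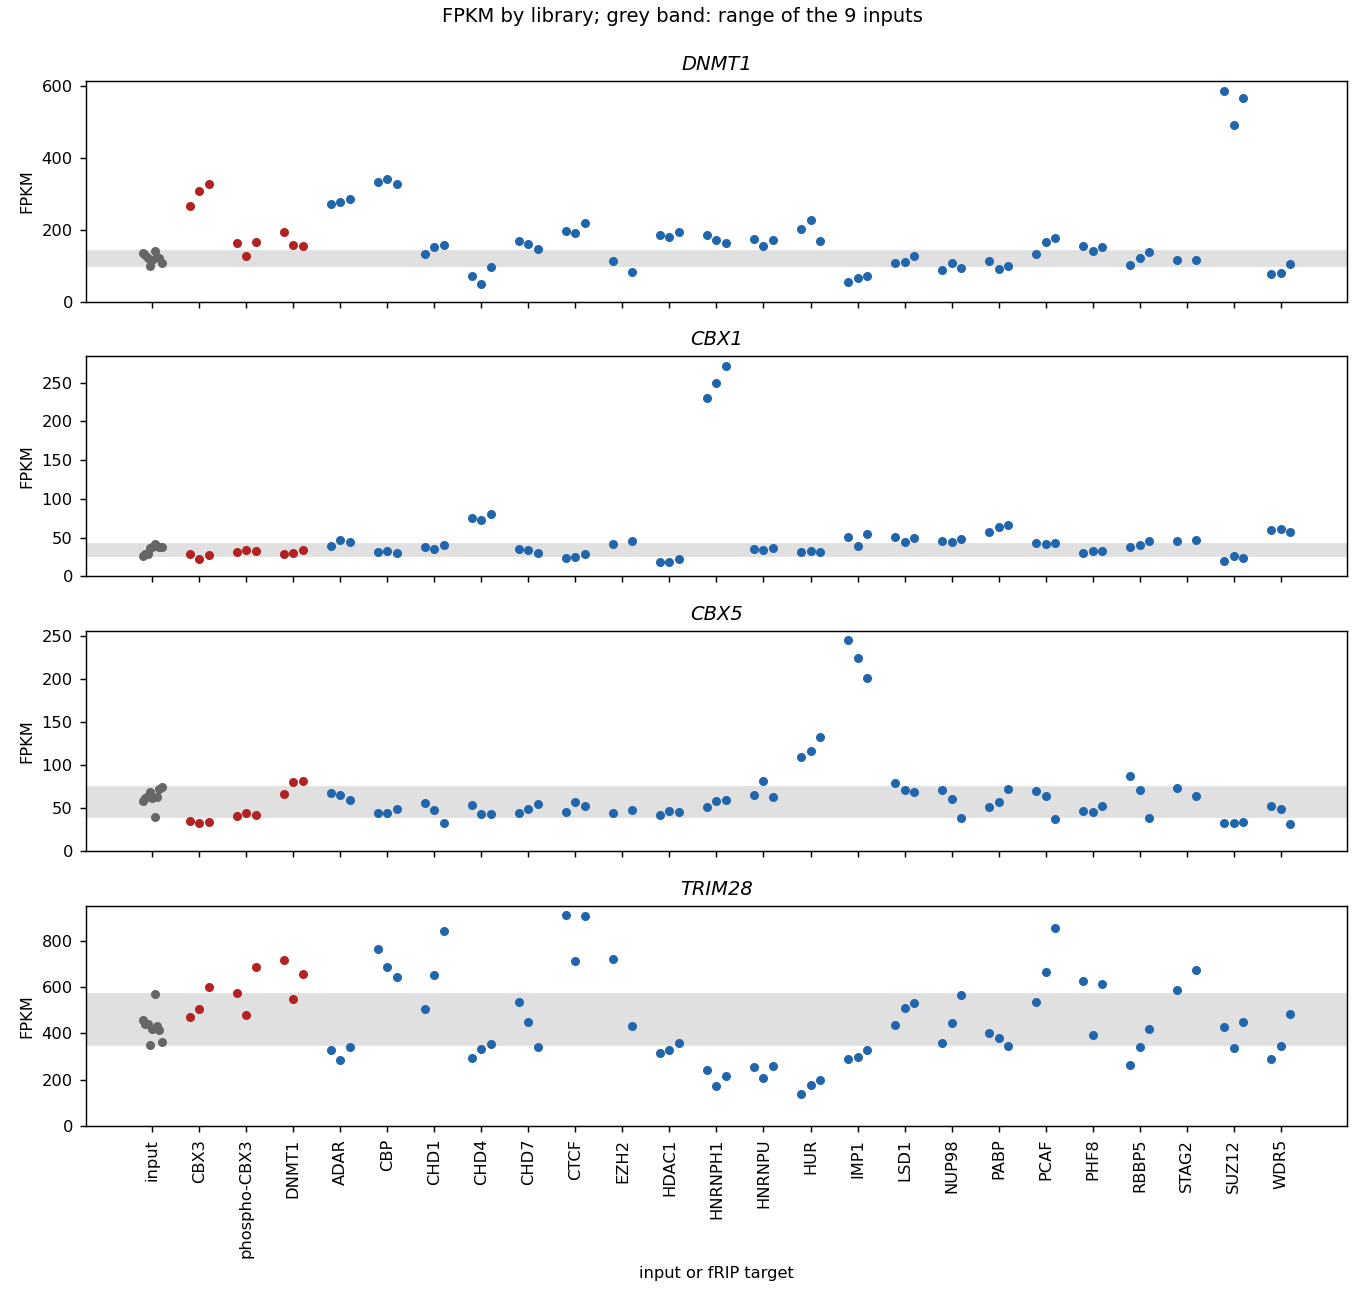
FPKM by library of DNMT1, CBX1, CBX5 and TRIM28 mRNAs in the inputs (grey) and the 24 fRIPs (CBX3, phospho-CBX3 and DNMT1 fRIPs in red, others in blue), with the range of the 9 inputs as a grey band. SUZ12 fRIP holds the highest DNMT1 values (490.5 to 586 FPKM), HNRNPH1 fRIP the highest CBX1 values (230 to 272 FPKM) and IMP1 fRIP the highest CBX5 values (202 to 246 FPKM), and TRIM28 falls below the band in HUR fRIP (140 to 201 FPKM).

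Over the 24 fRIPs the log2 fold changes of some of the mRNAs ran alike. As a description, with the 24 points sharing the inputs, Pearson's r was 0.74 for DNMT1 with EHMT2, 0.73 for EHMT1 with EHMT2, 0.71 for SETDB1 with EHMT1 and for SETDB1 with DNMT1, and 0.75 for TRIM28 with UHRF1. Among the HP1 paralogs it was between 0.06 and 0.16, and it was -0.59 for CBX1 with SETDB1 and -0.52 for CBX5 with SETDB1. It was low for TRIM28 with DNMT1 (0.10) and for DNMT1 with UHRF1 (0.16), and SUV39H1 ran from -0.27 with EHMT2 to -0.05 with DNMT1 among the methyltransferases. Among 10724 genes with at least 5 FPKM in input, those most like DNMT1 were WWOX (0.90), INTS3 (0.89) and TTC12 (0.89), and those most like EHMT1 were DGKD (0.92), SUPT6H (0.91) and GTPBP1 (0.90). For SETDB1 they were GALK2, AASDH and POLR2B (0.90 to 0.91), for EHMT2 SUGP1, CAD and HECTD3 (0.86 to 0.88), for TRIM28 TBL3, KIAA1967 and UQCRC1 (0.90 to 0.92) and for UHRF1 GRWD1, BOP1 and WDR3 (0.81 to 0.84). CBX5 was most like MMGT1, CLIC4 and PTBP3 (0.85 to 0.90), CBX1 most like TMEM9B, AQP3 and DYNLL2 (0.87 to 0.88), CBX3 most like EIF3J, PITPNB and SMNDC1 (0.73 to 0.78), and SUV39H1, near the limit of detection, WSCD2, CREB3L1 and EPPK1 (0.63 to 0.68).

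The isoform table divides each mRNA among annotated transcripts, an estimate that short and overlapping isoforms make uncertain. Of the 108 isoforms of the 10 genes tested, 31 were enriched and 3 depleted in CBX3 fRIP, where 13.1% of all isoforms were enriched and 3.29% depleted. In phospho-CBX3 fRIP 4 were enriched and 1 depleted (3.73% and 1.74% of all isoforms), and in DNMT1 fRIP 17 and 7 (13.8% and 5.45%). Leaving out single libraries gave 2 to 5 enriched and 0 to 3 depleted in phospho-CBX3 fRIP, and 14 to 17 and 3 to 8 in DNMT1 fRIP. In CBX3 fRIP the most abundant isoforms of CBX5 and EHMT2 were depleted, CBX5-201 at a log2 fold change of -1.44 and EHMT2-203 at -1.42 (SE 0.48, adjusted p = 0.02), the latter with libraries from 0.00221 to 5.79 FPKM against 6.15 to 10.8 FPKM in input. The most abundant isoforms CBX3-202, TRIM28-207, EHMT1-203, CBX1-201, SETDB1-217 and DNMT1-227 had log2 fold changes of -0.69, 0.14, -0.14, -0.59, 0.89 and 0.60 and were not called, nor were the 1 isoform of SUV39H1 tested and the most abundant of UHRF1. The enriched CBX3 isoform was CBX3-208, of 922 bases and without a defined coding sequence, at 60.5 to 69.8 FPKM in CBX3 fRIP and 41.1 to 42.4 FPKM in phospho-CBX3 fRIP against 15.3 to 24.7 FPKM in input (log2 fold changes 1.66, adjusted p = 4.69e-12, and 1.06, adjusted p = 2.74e-06). It was enriched as well in SUZ12 (1.84), HNRNPH1 (1.83) and CBP (1.22) fRIPs and depleted in IMP1 fRIP (-1.74), so that its enrichment was not particular to the fRIP of its own protein.

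Isoforms annotated as retained intron, which keep an intron of the spliced transcript, made up 19 of the 31 enriched isoforms in CBX3 fRIP. This grouping was chosen after the values were seen and carries no test. Of 35 retained intron isoforms tested, 19 were enriched in CBX3 fRIP, 24 in SUZ12 fRIP and 21 in CBP fRIP, where 32.7%, 39.8% and 33.3% of all 19390 retained intron isoforms were enriched. In phospho-CBX3 fRIP 1 of 35 was enriched (3.52% of all), and in DNMT1 fRIP 4 were enriched and 1 depleted (8.31% and 2.85% of all). In IMP1 fRIP none was enriched and 11 of 35 were depleted (19.8% of all depleted). Retained intron transcripts of the 10 genes were thus high in those fRIPs in which such transcripts were high in general.

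To show what such an isoform holds, the border of exon and retained intron is printed for TRIM28-215 and DNMT1-219, with the last 30 exon bases in lower case and the first 30 intron bases in capitals. They lie at hg19 chr19:59060114-59060173 on the plus strand and chr19:10251427-10251486 on the minus strand.
TRIM28-215: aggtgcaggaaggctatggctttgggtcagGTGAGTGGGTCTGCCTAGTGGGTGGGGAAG
DNMT1-219: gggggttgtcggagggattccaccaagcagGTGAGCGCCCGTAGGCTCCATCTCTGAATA
Each intron begins with GT, as most introns do, and is 85 bases long in TRIM28 and 452 bases in DNMT1. TRIM28-215 rose from 3.41 to 11.4 FPKM in the inputs to 35.4 to 51.3 FPKM in CBX3 fRIP (log2 fold change 2.45, SE 0.43, adjusted p = 5.73e-06). DNMT1-219 rose from 4.58 to 10.7 FPKM to 17.2 to 26.9 FPKM (1.48, SE 0.24, adjusted p = 2.10e-06), and both sets of libraries were free of overlap.

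In DNMT1 the retained intron isoforms differed from input by more than the others, as a description without a test. Summed, the 12 of them were at 40.8 FPKM in input (29.6 to 51.2) and 154 FPKM in CBX3 fRIP (140.2 to 162), a log2 difference of 1.92, whereas the other 17 isoforms were at 80.6 and 146 FPKM, a log2 difference of 0.84. Their share of the gene was 33.4% in input (26.0 to 39.7%), 51.4% in CBX3 fRIP (48.6 to 53.0%), 37.3% in phospho-CBX3 fRIP, 42.1% in DNMT1 fRIP, 48.8% in SUZ12 fRIP, 51.9% in CBP fRIP and 16.7% in IMP1 fRIP. Of all 24 fRIPs it was highest in HNRNPH1 fRIP, at 77.7%, where DNMT1 mRNA as a gene was not called. DNMT1-222 (10.4 to 38.5 FPKM on average, 1.82), DNMT1-207 (7.38 to 28.1 FPKM, 1.80) and DNMT1-211 (3.01 to 15.3 FPKM, 2.07) were among the retained intron isoforms enriched in CBX3 fRIP, beside the nonsense-mediated decay isoform DNMT1-210 (13.0 to 44.3 FPKM, 1.73).

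In TRIM28 and EHMT2 the summed retained intron isoforms also differed from input by more than the others. The 9 retained intron isoforms of TRIM28 were at 169 FPKM in input and 279 FPKM in CBX3 fRIP (log2 difference 0.73) while its other 6 were at 262 and 246 FPKM (-0.09), and TRIM28-201, of 3364 bases, was depleted (55.8 to 12.7 FPKM, -1.83, SE 0.42, adjusted p = 4.28e-04). The most abundant of the 9, TRIM28-208 (90.5 and 94.8 FPKM, 0.08) and TRIM28-212 (56.6 and 46.2 FPKM, -0.28), were not called. Protein coding TRIM28-203 (2.44) and TRIM28-211 (2.01), of 533 and 504 bases, were enriched, so the rise in TRIM28 did not follow the retained intron class alone. The retained intron isoforms of EHMT2 were at 6.84 and 17.8 FPKM (1.34) and its others at 19.8 and 25.3 FPKM (0.34), and EHMT2-203 was depleted (7.97 to 3.37 FPKM, -1.42, adjusted p = 0.020). In EHMT1 both groups were higher, by 1.60 for retained intron isoforms and 1.16 for the others, and EHMT1-202 was at 6.99 to 14.5 FPKM against at most 1.60 FPKM in input (3.00, adjusted p = 1.79e-06). An EHMT1 isoform not matched in the annotation, counted among the others, was at 12.6 to 17.5 FPKM against at most 3.195 FPKM (3.395, adjusted p = 1.28e-11). It was enriched as well in phospho-CBX3 (2.38), DNMT1 (2.35), SUZ12 (4.45), CBP (2.68) and HUR (1.26) fRIPs. In SETDB1 both groups differed from input alike, by 0.85 and 0.75.

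**Figure D4:**
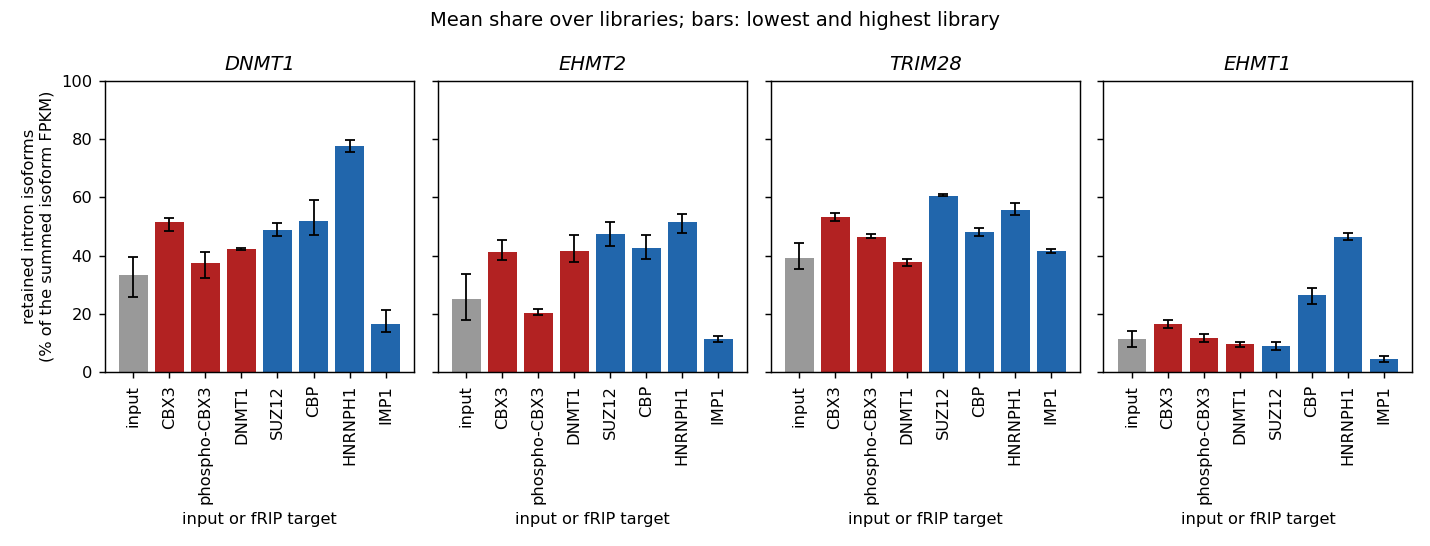
Share of the summed isoform FPKM of DNMT1, EHMT2, TRIM28 and EHMT1 that lay in retained intron isoforms, as the mean over the libraries of input and of 7 fRIPs, with bars from the lowest to the highest library and an axis from 0 to 100%. The DNMT1 share was 33.4% in input, 51.4% in CBX3 fRIP and 16.7% in IMP1 fRIP, and shares in IMP1 fRIP lay below the input for DNMT1, EHMT2 and EHMT1.

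In DNMT1 fRIP the estimated split of CBX5 among its isoforms differed from input, while the gene as a whole overlapped input. The study saw DNMT1 and SUZ12 fRIP coverage lean toward the start of transcripts. Whether coverage along the transcript, rather than a change of isoform, gave the values below was not tested. CBX5-201 fell to 6.86 to 11.7 FPKM from 26.8 to 57.4 FPKM in input (log2 fold change -2.15, SE 0.21, adjusted p = 5.13e-13). CBX5-204, of 894 bases, rose to 26.2 to 42.7 FPKM from 0.797 to 8.71 FPKM (2.94, SE 0.46, adjusted p = 3.91e-07), and CBX5-202, of 1832 bases, rose to 28.6 to 34.1 FPKM from 4.84 to 17.2 FPKM (1.40, SE 0.30, adjusted p = 1.29e-04). The share of CBX5-201 in CBX5 was 72.7% in input (62.9 to 87.0%), 12.6% in DNMT1 fRIP (8.37 to 15.0%), 24.1% in SUZ12 fRIP, 46.3% in CBX3 fRIP, 62.1% in phospho-CBX3 fRIP, 87.2% in HUR fRIP and 88.5% in IMP1 fRIP. In CBX3 fRIP CBX5-201 was depleted (13.7 to 17.3 FPKM, -1.44, SE 0.21, adjusted p = 1.13e-07) and the short isoforms were not called.

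**Figure D5:**
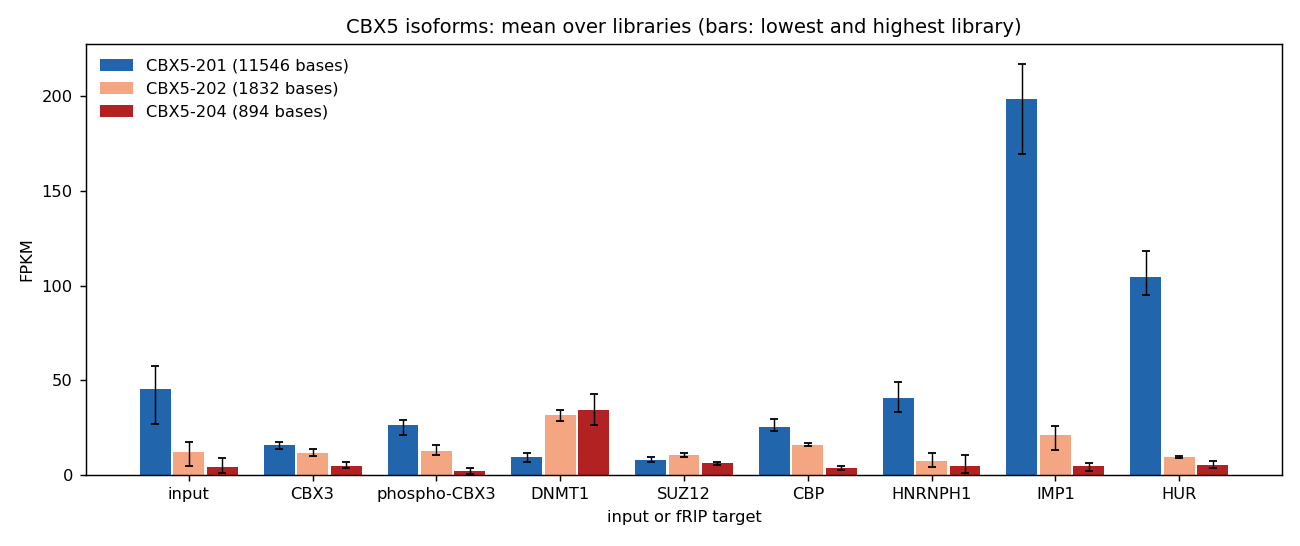
FPKM of CBX5-201 (11546 bases), CBX5-202 (1832 bases) and CBX5-204 (894 bases) in input and in 8 fRIPs, as means with bars from the lowest to the highest library. CBX5-201 stands at 199 FPKM in IMP1 fRIP and 104.5 FPKM in HUR fRIP against 45.5 FPKM in input, and only in DNMT1 fRIP among those drawn do CBX5-202 (31.4 FPKM) and CBX5-204 (34.2 FPKM) exceed 30 FPKM.

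Several isoforms of other genes in DNMT1 fRIP are set out by length, an order chosen after the values were seen and without a test. Their values carry the same uncertainty from coverage along the transcript. TRIM28-203 (533 bases) was at 48.2 to 74.8 FPKM against at most 12.7 FPKM in input (log2 fold change 4.62, SE 0.80, adjusted p = 4.24e-06) and TRIM28-204 (861 bases) at 197 to 259.8 FPKM against 70.3 to 122 FPKM (1.38), whereas TRIM28-201 (3364 bases) was depleted (-1.12, adjusted p = 0.0326). EHMT1-202 (818 bases) was enriched (3.32, adjusted p = 1.26e-07) and EHMT1-203 (5095 bases) was depleted (-1.14, adjusted p = 4.35e-08). The short DNMT1 isoforms DNMT1-223 and DNMT1-225 (341 and 591 bases) were enriched at 3.51 and 2.88, while the longer DNMT1-202 (5274 bases) was enriched as well, at 1.56. EHMT1-215, of 710 bases, was depleted at -1.02, and so was EHMT2-203, of 3979 bases, at -1.57.

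Of 45 further genes of H3K9 and DNA methylation, 44 were tested. The list held methyltransferases and their partners, the HUSH complex, HP1 partners and heterochromatin factors, H3K9 demethylases, methyl-CpG readers and genes of DNA demethylation. In CBX3 fRIP 5 were enriched and none depleted, with a median log2 fold change of 0.37 (0.05 over all genes, of which 7.45% were enriched). In phospho-CBX3 fRIP 2 were enriched and none depleted, with a median of 0.24 (-0.04 over all genes, 2.58% enriched), and in DNMT1 fRIP 4 and none, with a median of 0.30 (0.05 over all genes, 9.56% enriched). Genes with at least 10 FPKM in input had a median of 0.37 in DNMT1 fRIP, and with centring on them 2 of the list were enriched and 2 depleted there. In CBX3 fRIP the H4K20 methyltransferase SUV420H2 (21.6 FPKM in input, 62.8 in the fRIP; log2 fold change 1.51, SE 0.15, adjusted p = 7.17e-13), the methyl-CpG reader MBD1 (28.6 to 78.4 FPKM; 1.42, adjusted p = 9.26e-18) and the histone chaperone subunit CHAF1A (42.4 to 98.3 FPKM; 1.20, adjusted p = 1.92e-11) led, beside the H3K9 demethylases KDM3A and KDM4B. CHAF1A and the chromatin remodeler ATRX were enriched in phospho-CBX3 fRIP, at 1.05 and 1.01. Both calls were lost with input set 1 alone and with centring on genes with at least 10 FPKM, and 1 gene of the list was enriched without replicate 1 or replicate 2 of the fRIP, without replicate 1 of input set 2 or without replicate 1 of input set 3. In DNMT1 fRIP the methyl-DNA binding ZBTB38 (30.3 to 94.3 FPKM; 1.62, adjusted p = 1.29e-11), the replication clamp PCNA (95.8 to 259.7 FPKM; 1.46, adjusted p = 4.90e-10) and SUV420H2 (1.19) were enriched, and so was JMJD1C. By group, 2 of 6 H3K9 demethylases and 2 of 10 HP1 partners and heterochromatin factors were enriched in CBX3 fRIP. None of 4 HUSH subunits, of 6 H3K9 methyltransferases and their partners or of 4 genes of DNA demethylation was called in CBX3, phospho-CBX3 or DNMT1 fRIP. Between phospho-CBX3 and CBX3 fRIPs none of the 44 was called.

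Several of the 10 genes overlap a neighbour, and whether the counting used strand is not given in the sources used here. EHMT1 shares 92027 bases with a long noncoding RNA gene on its own strand, CBX5 shares 16449 bases with SCAT2 on the opposite strand, and SUV39H1 shares 10054 bases with a long noncoding RNA gene on the opposite strand. CBX3 shares 368 bases with HNRNPA2B1 and SETDB1 shares 4162 bases with CERS2 on the opposite strand, EHMT2 lies opposite EHMT2-AS1 over 4446 bases, and DNMT1 shares 9854 bases with S1PR2 on its own strand. Reads from these stretches cannot be assigned to 1 gene with certainty.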

How the data were processed

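Gene and isoform tables with FPKM values per library, as the authors deposited them, were used. The submitters' processing notes name CASAVA 1.4, TopHat, Cuffdiff, Cuffnorm and hg19, and whether counting used strand is not given in the sources used here. A further deposited table holds the authors' group FPKM, fold changes, test statistics, p-values and q-values. Of it only the input FPKM was read, to find the input set nearest to each fRIP's reference (set 1 for 13 fRIPs, set 2 for 5 and set 3 for 6), and no fold change or p was used. Columns were mapped to samples by their labels, except that the labels number the STAG2 libraries 1 and 3 whereas the columns are numbered 1 and 2, so that column 2 was assigned to the STAG2 group without a number.

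Features had to reach 1 FPKM in 2 or more libraries, log2(FPKM + 1) was fitted with limma 3.58.1 (R 4.3.3) with a mean trend over all 79 libraries, and p-values were adjusted by Benjamini-Hochberg over all genes, or all isoforms, tested. Since replicates came from 1 cell line, p-values measure the spread between lysates, pooled over all groups of libraries. The 9 inputs had 1 mean, so differences between the 3 input sets are part of that spread. Exact permutation tests used scipy 1.17.1, tables used pandas 2.3.3 and numpy 2.4.6 under Python 3.11.15, and figures used matplotlib 3.10.9. The fit was tested on simulated data with known changes. Fragment counts are not in the files used, so depth is an estimate and values carry no counting interval. Within a group, libraries correlated at r of 0.914 to 0.993 and no pair was identical. Sequences, isoform names and coordinates came from the hg19 genome and GENCODE annotation lifted to it.

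All 10 genes were reported in CBX3, phospho-CBX3 and DNMT1 fRIPs, and elsewhere their called pairs and their highest and lowest fRIPs. From the pathway list up to 3 called genes per direction and fRIP were described, with other called genes of it named, and the 3 genes most like each of the 10 were named. The genes and lists were chosen with earlier results of these data known. Alternatives were the pseudocount, the filter, centring, input sets, the replicate block, a fit without the mean trend, a fit on the libraries of each fRIP and the inputs only, and leaving out each library.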

Additional observations from a re-analysis of the deposited data

Results flagged for a closer look

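Replicate 3 of input set 2 lay apart from the other 8 inputs in 3 of the 10 mRNAs. CBX5, the HP1 alpha mRNA, was at 39.5 FPKM there against 58.0 to 74.9 FPKM in the others. TRIM28 mRNA was at 570.5 FPKM against 348 to 457 FPKM, and UHRF1 mRNA was at 21.3 FPKM against 9.54 to 14.7 FPKM. The gap to the nearest library exceeded 0.493 of the whole range in each case. This was looked for in 20 groups of values, and chance alone marks about 1 in 20 groups.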

How the results depend on the processing

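Of the 16 called pairs, 10 were called in all 25 alternatives. The others were DNMT1 in ADAR fRIP (lost under both centrings, 0.22 at the lowest), CBX1 in CHD4 fRIP (lost in 2, 0.95 at the lowest), CBX3 in EZH2 fRIP (lost in 3, -0.84 at the weakest), EHMT1 in HDAC1 fRIP (lost in 6 alternatives, 0.74 at the lowest), TRIM28 in HNRNPH1 fRIP (lost in 3, -0.90 at the weakest) and UHRF1 in HNRNPU fRIP (lost in 5, -0.81 at the weakest). No called value changed sign. Some pairs not called in the main fit passed the rule in alternatives, such as TRIM28 in CTCF fRIP (in 4, up to 1.09). EHMT2 in SUZ12 fRIP, DNMT1 in IMP1 fRIP and EHMT1 in CBP, HNRNPH1 and PABP fRIPs each passed in 3. The causes were not tested. FPKM holds no counts, so low isoforms carry an unknown counting error.

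Of all genes, 1895 were enriched and 928 depleted in CBX3 fRIP, 657 and 740 in phospho-CBX3 fRIP, 2432 and 1750 in DNMT1 fRIP, and 84 were higher and 611 lower in phospho-CBX3 than in CBX3 fRIP. With a pseudocount of 0.1, depleted genes were 1560 in CBX3 fRIP, 1753 in phospho-CBX3 fRIP and 3522 in DNMT1 fRIP, and phospho-CBX3 fRIP had 1027 enriched. With 0.5 phospho-CBX3 fRIP had 1161 depleted. Centring on genes with at least 10 FPKM, chosen after seeing the data, gave 1229 enriched and 1530 depleted in CBX3 fRIP and 797 and 3719 in DNMT1 fRIP. With input set 1 alone, which is also the matched set, phospho-CBX3 fRIP had 313 enriched and 1129 depleted. Centring on all genes gave 209 higher and 250 lower in phospho-CBX3 than in CBX3 fRIP.

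Among pairs, 9 were depleted with centring on all genes and 7 with centring on genes with at least 10 FPKM. In CBX3 fRIP 1 of the 10 genes, CBX5, was then depleted, as with input set 3 alone, and 3 pathway genes were enriched. Depleted isoforms there were 5 with centring on all genes and 1 with input set 1. In phospho-CBX3 fRIP 1 isoform was enriched with input set 1, and depleted isoforms were 4 with either smaller pseudocount, 2 with the filter at 10 libraries, 3 with centring on all genes, 3 with input set 1 or 2 and 5 with set 3. Enriched pathway genes in phospho-CBX3 fRIP were 5 with centring on all genes, 0 with centring on genes with at least 10 FPKM, 0 with input set 1, 6 with set 2 and 7 with set 3. In DNMT1 fRIP 2 were enriched and 2 depleted with centring on genes with at least 10 FPKM.

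Leaving out single libraries gave 1791 to 2082 enriched and 755 to 1063 depleted genes in CBX3 fRIP, 511 to 832 and 539 to 870 in phospho-CBX3 fRIP, 2356 to 2506 and 1664 to 1820 in DNMT1 fRIP, and 67 to 102 higher and 386 to 664 lower in phospho-CBX3 than in CBX3 fRIP, where 386 was without replicate 2. Enriched pairs were 11 to 15 and depleted pairs 2 to 6, with 2 without input set 2 replicate 3. Without replicate 1, DNMT1 mRNA was lower in phospho-CBX3 than in CBX3 fRIP (-1.12), so that 0 to 1 of the 10 genes was called. Enriched isoforms were 28 to 33, 2 to 5 and 14 to 17 in CBX3, phospho-CBX3 and DNMT1 fRIPs, depleted ones 2 to 3, 0 to 3 and 3 to 8, and enriched pathway genes 4 to 6, 1 to 3 and 3 to 5.

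With the replicate number as a block, CBX3 in EZH2 fRIP was at -0.99 and 2 isoforms were depleted in phospho-CBX3 fRIP. Deviations of a fRIP library and the matched input with the same number correlated at 0.0001 (CBX3), 0.0543 (phospho-CBX3) and 0.1667 (DNMT1) on average. For DNMT1 fRIP the 3 pairs ran from -0.0084 to 0.3394, and other numbers were at -0.0850 on average. Whether such libraries share more than a number cannot be told from 3 pairs. The correlation of pairs with the same number was over 0.1 in every pair for CHD1, NUP98, PCAF and WDR5 fRIPs.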
